A study of Mus musculus and Homo sapiens with 9 samples.

Results

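Among 48 mouse genes of strand break repair and other DNA repair pathways, 11 had a peak of thymine DNA glycosylase (TDG) at a gene end, a share of 22.9%. The share was 12.2% over the remaining protein-coding genes of the same chromosomes. None of the 48 had a p53 peak, which was rare at other genes too (0.481%). The 48 genes were chosen by name, for their place in recombination, end joining, mismatch, crosslink, excision and checkpoint repair, and all of them were found among 21887 protein-coding genes of the RefSeq annotation. A gene counted as having TDG when the summit of a TDG peak lay within 1 kb of either end of the gene. It counted for p53 when it held a p53 summit or was the nearest protein-coding gene to one.

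The peaks came from chromatin immunoprecipitation and sequencing (ChIP-seq) of B16 cells, a mouse melanoma line, in a series of 9 samples that also holds the human lung cancer line H1299. The 2 libraries used here were both made from B16 cells carrying an HA tag knocked into Tdg. The first library was precipitated with an antibody to HA, which binds the tagged TDG, and the second with an antibody to p53. The labels name no treatment for these cells and do not say whether the knock-in line is a single clone. The other 7 samples include HA precipitation from WT B16 cells and p53 precipitation from Trp53 KO B16 cells. They were not analysed here, so whether a peak depended on the tag or on p53 was not tested. Each list stood for 1 library with no replicate and carried no library totals and no expression values, so the cell type could not be checked against its markers. Fold enrichments are values of single peaks as the authors deposited them, and no difference given here was tested over samples. The −log10 q is the caller's significance after correction for many sites, higher being stronger. Summit reads, the reads piled up at the highest point of a peak, were worked back from the deposited fold and p and are not the authors' own counts. Local background is given in scaled reads, the caller's unit, in which 1 read of the TDG library counted as 0.924.

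TDG starts base excision repair by removing thymine from G:T mismatches and oxidised forms of methylcytosine from DNA, mostly at CpG dinucleotides. The genes described here act mainly in the other pathways: breaks of both strands are mended by recombination or end joining, bulky lesions by nucleotide excision, replication errors by mismatch repair and crosslinks by the Fanconi anaemia proteins, while checkpoint kinases halt the cell cycle. The p53 protein is a transcription factor that is stabilised after DNA damage and activates some repair genes.

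The promoters in question were mostly rich in CpG, the dinucleotide TDG acts on. Promoters of 300 bases, 250 before and 50 after a listed gene start, were taken from RefSeq (GRCm38.p6, the mm10 build) for 38 of the 48 genes, at the outermost start where several were listed. Those not in the table were Apex2, Ercc3, Exo1, Fancd2, Nbn, Polb, Prkdc, Rad50, Rad9a and Wrn. The first 4 sequences below are examples of genes with a TDG summit inside the 300 bases. Blm, Mdc1, Rad52 and Rpa3, not shown, also had one there, with 32, 22, 26 and 28 CpG. The last 2 show promoters without TDG, Apex1 rich in CpG and Lig1 poor in it. Each sequence shown is written 5′ to 3′ on the strand of its gene, with every CpG in capitals. The listed start follows directly after base 250. Summit positions count from the first base shown.
Atm, chr9:53536622-53536921, minus strand, summit at base 66, 28 CpG.
Atm: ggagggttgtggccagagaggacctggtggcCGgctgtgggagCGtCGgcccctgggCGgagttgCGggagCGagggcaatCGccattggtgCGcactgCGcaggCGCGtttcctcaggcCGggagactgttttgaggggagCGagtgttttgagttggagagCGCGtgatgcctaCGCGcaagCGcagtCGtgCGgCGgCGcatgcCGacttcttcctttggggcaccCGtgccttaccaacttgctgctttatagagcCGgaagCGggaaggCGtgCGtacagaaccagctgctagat
Rpa1, chr11:75348334-75348633, minus strand, summit at base 199, 33 CpG.
Rpa1: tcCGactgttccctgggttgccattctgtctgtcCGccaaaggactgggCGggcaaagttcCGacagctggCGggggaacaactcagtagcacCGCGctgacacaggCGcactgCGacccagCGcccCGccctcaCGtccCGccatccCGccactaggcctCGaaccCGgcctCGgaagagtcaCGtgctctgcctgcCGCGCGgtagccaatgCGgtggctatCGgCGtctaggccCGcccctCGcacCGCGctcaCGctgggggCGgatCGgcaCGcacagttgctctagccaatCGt
Msh6, chr17:87974800-87975099, plus strand, summit at base 120, 37 CpG.
Msh6: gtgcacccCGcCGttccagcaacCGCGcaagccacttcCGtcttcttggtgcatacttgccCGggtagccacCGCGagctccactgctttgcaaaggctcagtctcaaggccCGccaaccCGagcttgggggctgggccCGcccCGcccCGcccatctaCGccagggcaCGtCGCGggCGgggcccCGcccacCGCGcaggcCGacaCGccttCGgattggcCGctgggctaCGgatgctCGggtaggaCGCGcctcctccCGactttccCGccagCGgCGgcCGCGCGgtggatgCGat
Xrcc6, chr15:82016119-82016418, plus strand, summit at base 242, 30 CpG.
Xrcc6: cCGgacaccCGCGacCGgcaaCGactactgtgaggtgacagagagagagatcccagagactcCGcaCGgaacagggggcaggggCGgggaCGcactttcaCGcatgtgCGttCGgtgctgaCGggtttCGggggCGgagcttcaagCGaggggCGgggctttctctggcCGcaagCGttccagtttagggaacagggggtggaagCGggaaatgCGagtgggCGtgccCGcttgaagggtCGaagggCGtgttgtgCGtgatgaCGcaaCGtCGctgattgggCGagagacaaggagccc
Apex1, chr14:50924699-50924998, plus strand, 31 CpG.
Apex1: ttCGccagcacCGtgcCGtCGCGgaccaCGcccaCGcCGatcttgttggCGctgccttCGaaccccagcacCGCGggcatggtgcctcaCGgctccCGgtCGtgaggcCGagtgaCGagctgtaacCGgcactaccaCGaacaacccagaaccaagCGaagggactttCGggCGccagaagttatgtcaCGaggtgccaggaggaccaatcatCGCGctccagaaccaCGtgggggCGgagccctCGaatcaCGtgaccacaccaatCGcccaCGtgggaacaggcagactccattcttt
Lig1, chr7:13276925-13277224, plus strand, 5 CpG.
Lig1: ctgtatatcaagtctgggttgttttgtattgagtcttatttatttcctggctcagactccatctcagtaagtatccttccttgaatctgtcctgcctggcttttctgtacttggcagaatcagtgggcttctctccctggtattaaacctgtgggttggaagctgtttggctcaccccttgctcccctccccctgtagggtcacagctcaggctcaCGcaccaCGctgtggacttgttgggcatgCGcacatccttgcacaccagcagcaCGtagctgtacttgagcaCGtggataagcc

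TDG lay at an end of 11 of the 48 repair genes (22.9%), against 2311 of 18920 other protein-coding genes on the same 17 chromosomes (12.2%). TDG peaks were spread unevenly over the chromosomes, with peaks at 25.6% of the other genes on chromosome 6 and 0.104% on the X chromosome. Weighting each chromosome by the repair genes it carries gave 12.4%, or 5.93 genes, so the positions of the genes among chromosomes moved the comparison little. Mismatch repair had TDG at 2 of 3 genes (Msh6 and Pms2), replication protein A at 2 of 3 (Rpa1 and Rpa3) and recombination at 3 of 9. Base excision and single-strand break repair had none of 9 and crosslink repair none of 3, but the chromosome shares alone would give 0.757 and 0.396 genes there. Groups of this size are too small for their shares to be ranked.

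**Figure D1:**
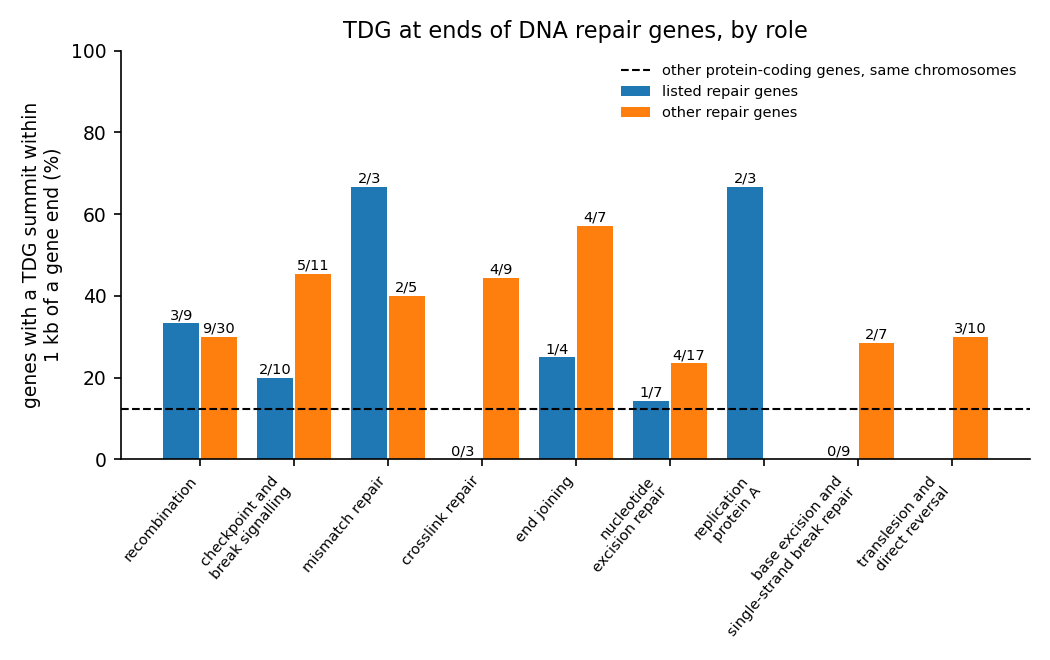
Share of repair genes with a TDG summit within 1 kb of a gene end (vertical axis, %), by role, for the 48 listed genes (blue) and 96 other repair genes (orange), with counts above the bars and the share of other protein-coding genes on the same chromosomes, 12.2%, as a dashed line. Mismatch repair and replication protein A have 2 of 3 listed genes with a peak, and base excision and single-strand break repair has none of 9.

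Of the recombination genes, Nbn, Blm and Brca1 had TDG at an end. Nbn encodes nibrin, a subunit of the complex with MRE11 and RAD50 that senses broken ends, and its peak had the highest fold enrichment of the 11. Its enrichment was 7.55-fold and its −log10 q was 12.5 (chr4:15957894-15958248). The summit held 28 reads and lay 431 bases inside the lower-coordinate end of the gene (15957587 to 15992589). Blm encodes the RecQ helicase that resolves recombination intermediates without crossover. Its peak (chr7:80535136-80535589) reached 5.47-fold with 20 summit reads, and the summit lay 65 bases before the first base of the gene (80454993 to 80535148, minus strand). Brca1, a ubiquitin ligase subunit that promotes recombination, had the lowest peak of the 11, at 4.5-fold (chr11:101552620-101552900). Its summit carried 33 reads over a local background of 6.0 scaled reads and lay 835 bases upstream of Brca1 (101488761 to 101551955, minus strand), inside the neighbouring gene Nbr1, 683 bases from the end of Nbr1 that faces Brca1. It was also the member summit nearest to the 1 kb limit on the inside.

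Rad52, which anneals single strands, lay just outside that limit. Its summit was 1012 bases inside the lower end of the gene record (chr6, 119901722 to 119922827), with 5.68-fold enrichment and 24 reads. The RefSeq start listed for the Rad52 promoter is at 119902698, further inside the record, and the summit was 36 bases from it. The other 5 recombination genes had no TDG summit in the gene or within 10 kb of it. Palb2, the link between BRCA1 and BRCA2, had its nearest TDG summit 26615 bases from a gene end and Rad50 had it 30229 bases away. For the helicase gene Wrn, for Bard1, the partner of Brca1, and for Brca2, a mediator of recombination, the distances were 447919, 453973 and 798464 bases.

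Checkpoint and break signalling genes had TDG at 2 of 10. Atm encodes the kinase that is activated by double-strand breaks. Its peak (chr9:53536720-53537057) had 6.77-fold enrichment, a −log10 q of 10.7 and 25 summit reads. The summit lay 28 bases outside the Atm gene (53437122 to 53536828) and 33 bases from Npat, which starts 61 bases away on the opposite strand. Mdc1 encodes the mediator that binds phosphorylated H2AX beside breaks. Its peak (chr17:35841342-35841814) reached 5.91-fold with 22 summit reads, 117 bases before the gene (35841495 to 35859670, plus strand). A second TDG peak near Mdc1, of 5.37-fold with 28 reads, had its summit 1804 bases beyond the other end.

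No TDG summit lay in or within 10 kb of the other 8 checkpoint genes. The nearest was 15468 bases from Topbp1, the activator of ATR, and it was a strong peak of 10.1-fold. Trp53bp1 (23905 bases) and Rad9a (25686 bases) followed, the first encoding a break-bound mediator that limits resection and the second a subunit of the clamp that loads at damaged DNA. Chek2 (68960 bases) and Rad17 (93383 bases) came next. Hus1 (338923 bases), the kinase gene Chek1 (621794 bases) and Atr (678467 bases), the kinase of stalled forks, were far from any TDG summit.

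Mismatch repair had TDG at 2 of 3 genes. Msh6, whose product binds mismatches, had a 5.21-fold peak with 19 summit reads (chr17:87974847-87975326), the fewest reads of the 11, and its summit lay 131 bases before the gene (87975050 to 87990892, plus strand). Pms2, whose product nicks the new strand, had a 5.73-fold peak with 21 reads (chr5:143909538-143910019). That summit lay 263 bases before Pms2 (143909901 to 143972745) and 201 bases inside Aimp2, a gene on the opposite strand 62 bases away. Exo1, the exonuclease of this pathway, had its nearest TDG summit 187984 bases away. None of the 3 listed crosslink repair genes had a peak. The distances were 27082 bases for Fancd2, which is monoubiquitinated at crosslinks, 108228 for Fanca and 656202 for Fancc.

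End joining had TDG at the end of Prkdc, which encodes the catalytic subunit of the DNA-dependent protein kinase. The Prkdc peak was the widest of the 11, at 944 bases (chr16:15637027-15637970), and reached 5.73-fold with 21 summit reads. Its summit lay 411 bases inside Prkdc (15637444 to 15842239), and the peak also spanned the end of Mcm4, a replicative helicase subunit gene 44 bases away. Xrcc6, which encodes a subunit of the Ku heterodimer that caps broken ends, had a 5.09-fold peak with 32 summit reads over a local background of 5.0 scaled reads (chr15:82015986-82016526). By the gene record (81987833 to 82040085) this summit was deep inside the gene, 23725 bases from the nearer end, yet it lay 9 bases from the RefSeq start listed for the Xrcc6 promoter. It was also 102 bases from the end of Desi1, a gene on the opposite strand. Xrcc5, which encodes the other Ku subunit, had its nearest TDG summit 750303 bases away, and Lig4, the ligase of this pathway, 1573087 bases away.

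Of the 7 nucleotide excision repair genes, Ercc4 had TDG at an end. Ercc4 encodes the XPF nuclease, which cuts damaged strands together with ERCC1. Its peak (chr16:13109635-13110165) reached 6.51-fold with 24 summit reads, and the summit lay 426 bases inside the gene record (13109366 to 13152009, plus strand) and 56 bases from the listed start. The gene of its partner, Ercc1, carried a weaker peak of 4.82-fold with 25 reads (chr7:19345122-19345501), 1260 bases inside the gene record (19344067 to 19356524) and 256 bases from the listed start. A further TDG peak of 5.56-fold lay 4679 bases beyond the other end of Ercc1. The helicase gene Ercc2 (20814 bases), the coupling factor genes Ercc8 (268517 bases) and Ercc6 (1176719 bases), the damage verification gene Xpa (310962 bases) and the helicase gene Ercc3 (943788 bases) had no TDG summit near them.

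Replication protein A coats single-stranded DNA in several of these pathways. Rpa1, the large subunit gene, had a 6.48-fold peak (chr11:75348274-75348693). Its −log10 q, 13.2, and its 34 summit reads were the highest among the 11. Its summit was 19 bases inside Rpa1 (75300259 to 75348454, minus strand) and 2 bases from the first base of Smyd4, whose record overlaps that of Rpa1 by 22 bases on the opposite strand. Rpa3, the small subunit gene, had a 6.67-fold peak with 31 reads (chr6:8258948-8259484), with the summit 179 bases before Rpa3 (8255936 to 8259141, minus strand) and 32 bases from the start of Umad1. Rpa2, the remaining subunit gene, had its nearest TDG summit 252699 bases away.

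The 9 genes of base excision and single-strand break repair take over after a glycosylase has removed a base or mend single-strand breaks, and no TDG summit lay within 10 kb of any of them. The nearest were 16058 bases from Xrcc1, the scaffold of single-strand break repair (7.03-fold), 66798 bases from its ligase gene Lig3 and 125017 bases from the break sensor gene Parp1. Lig1 (239104 bases) and the gap-filling polymerase gene Polb (442392 bases) followed. Apex1, the main abasic site endonuclease gene, Parp2, Fen1 and Apex2 were all over 1 Mb from a TDG summit, the shortest of the 4 distances being 1092774 bases for Apex1. Apex1 and Parp2 lie on chromosome 14, where 3.07% of other protein-coding genes had TDG at an end, and Apex2 on the X chromosome.

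The peaks of repair genes were of ordinary strength for TDG peaks at gene ends. The 11 had a median fold enrichment of 5.91 with quartiles of 5.6 and 6.59, and all 2290 TDG peaks at ends of protein-coding genes had a median of 5.99 with quartiles of 5.14 and 6.94. The median number of summit reads was 24 in both sets. Counting error alone is wide at this depth: the exact Poisson 95% interval was 11.4 to 29.7 for the 19 reads of Msh6 and 23.5 to 47.5 for the 34 reads of Rpa1. These intervals, which cover counting error only, overlap, so the order of the 11 peaks by reads is not resolved.

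**Figure D2:**
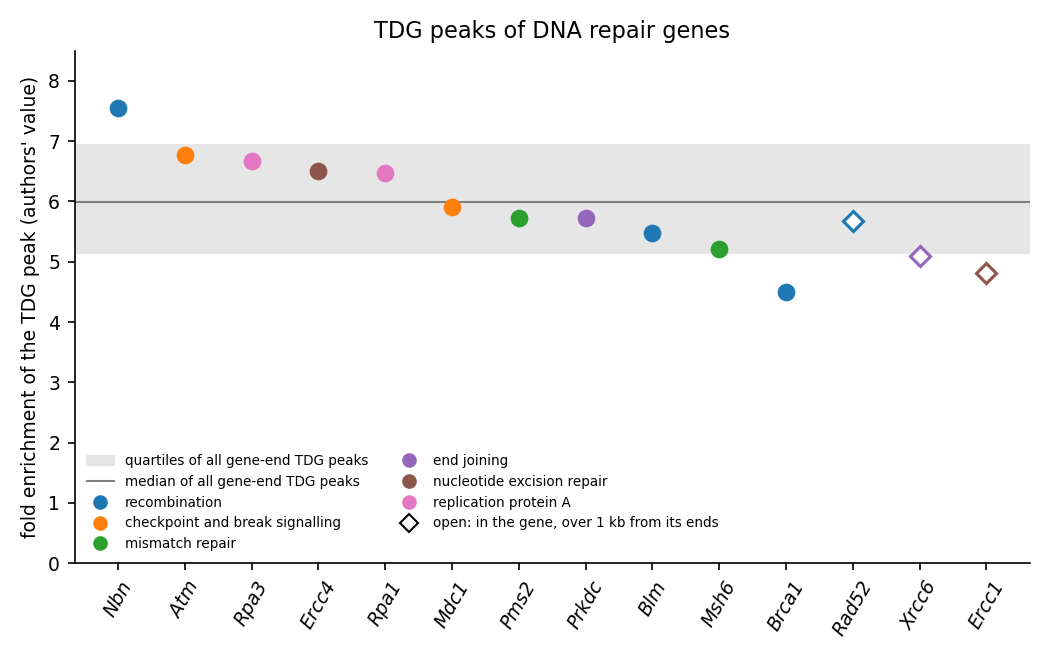
Authors' fold enrichment (vertical axis) of the TDG peaks of 14 repair genes, coloured by role, with filled circles for the 11 genes with a summit within 1 kb of a gene end and open diamonds for Rad52, Xrcc6 and Ercc1, whose summits lie in the gene over 1 kb from its ends. The grey band and line are the quartiles (5.14 and 6.94) and median (5.99) of all gene-end TDG peaks. Nbn at 7.55 lies above the band, and Brca1, Xrcc6 and Ercc1 lie below it.

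Where the strand was known, TDG lay at the start of the gene. This held for all 9 such genes of the 11, and for 1850 of 1920 other genes with TDG at an end (96.4%), so it was common to gene-end TDG peaks. The RefSeq starts moved Rad52, Xrcc6 and Ercc1 into the same class. Against these listed starts, a choice made after the data were seen, 12 of 38 repair genes (31.6%) had a summit within 1 kb, against 13.0% of 15010 other protein-coding genes in the table. The 3 genes with a peak inside the gene only (6.25% of 48, against 2.52% of other genes on the same chromosomes) were therefore all genes with a peak at a listed start. Of the 12 summits, 9 lay upstream of the start, by 9 bases at Xrcc6 to 835 bases at Brca1, and those of Rad52, Ercc4 and Ercc1 lay 36, 56 and 256 bases downstream.

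**Figure D3:**
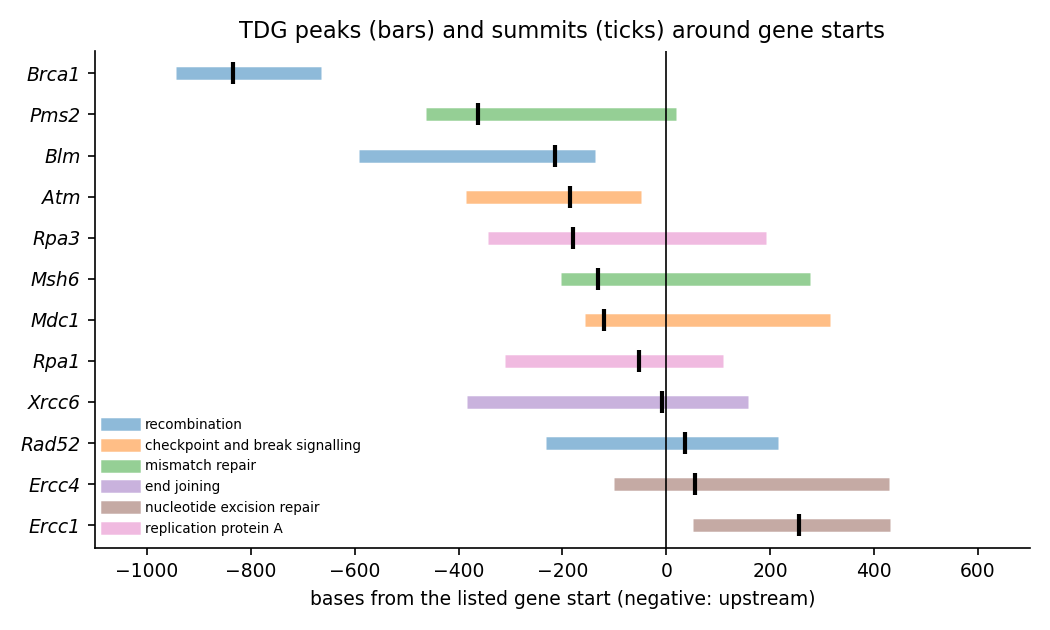
TDG peaks (bars) and their summits (black ticks) of the 12 repair genes with a summit within 1 kb of a listed start, along the distance from that start in bases on the gene's strand (horizontal axis, negative upstream), coloured by role. Summits run from 835 bases upstream at Brca1 to 256 bases downstream at Ercc1.

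Several of the peaks lay close to the ends of 2 genes. The Atm summit lay between Atm and Npat. Those at Brca1, Pms2 and Rpa3 lay inside the neighbouring gene, that at Prkdc inside Prkdc and that at Rpa1 inside both genes. For 6 of the 11 genes (54.5%) the summit was also within 1 kb of an end of another protein-coding gene, against 33.4% of the 2311 other genes with TDG at an end. These neighbours were Npat at Atm, Nbr1 at Brca1, Aimp2 at Pms2, Mcm4 at Prkdc, Smyd4 at Rpa1 and Umad1 at Rpa3. At Atm, Brca1, Pms2, Rpa1 and Rpa3, where both strands were listed, the genes ran in opposite directions from starts that faced each other. A peak at such a site cannot be assigned to the repair gene rather than its neighbour. By the gene records, the summit at Rpa1, Rpa3, Brca1 and Pms2 was nearer to the neighbour's end than to that of the repair gene. At Atm and Prkdc it was nearer to the repair gene by the same records. For Atm this rested on 28 against 33 bases, and the listed Atm start was 185 bases from the summit.

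The share with TDG was nearer to that of other genes when CpG-rich promoters were compared with each other. A promoter was called CpG-rich when its observed CpG count was at least 0.6 of that expected from its C and G content, a limit set after the files had been seen. By this limit 33 of 38 repair gene promoters were CpG-rich (86.8%), against 48.4% of 17492 protein-coding genes in the table. Among CpG-rich promoters, TDG lay at the listed start of 11 of 33 repair genes (33.3%) and of 23.3% of 7245 other genes. Among the rest it lay at 1 of 5 repair genes, which was Ercc1, and at 3.36% of 7765 other genes. The ratio of the shares was 2.43 over all promoters in the table and 1.43 among the CpG-rich ones. Repair promoters with TDG had a median of 27 CpG and those without it 22, and the range of those with TDG, 13 to 37, lay inside that of those without, 5 to 38. The unmarked Apex1 promoter, with 31 CpG, held more than the Atm promoter with 28.

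**Figure D4:**
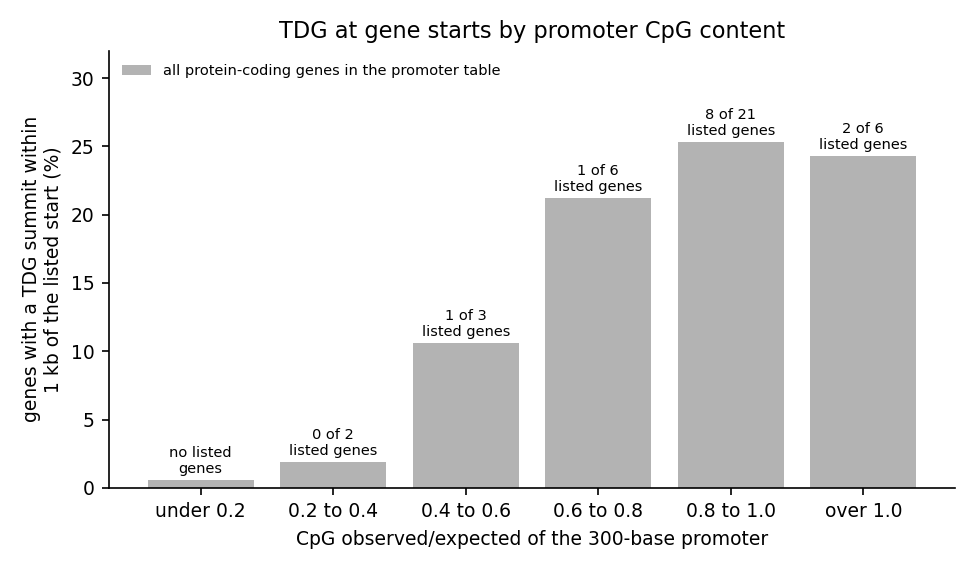
Share of all protein-coding genes in the promoter table with a TDG summit within 1 kb of the listed start (vertical axis, %), in bins of the observed to expected CpG ratio of the 300-base promoter (horizontal axis), with the count of listed repair genes above each bar. The share runs from 0.6% in the lowest bin to 25.3% between 0.8 and 1.0, the bin that holds 21 of the 38 repair genes and 8 of the 12 with TDG.

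Short motifs were counted in the same 300 bases on both strands. CCAAT was in 10 of the 12 repair promoters with TDG (83.3%) and in 11 of the 26 without it (42.3%), against 44.5% of other promoters with TDG and 39.2% of all promoters. GGGCGG, the GC box, was in 10 of 12 and in 14 of 26, against 77.0% of other promoters with TDG and 46.3% of all. The E-box CACGTG was in 1 of the 12 (Rpa1) and in 8 of the 26, a total of 9 of 38 (23.7%). It was in 10.3% of other promoters with TDG and in 7.91% of all promoters. The 8 were Apex1, Lig1, Lig3, Parp1 and Parp2 of base excision and single-strand break repair, Ercc6 and Ercc8 of nucleotide excision repair, and Xrcc5, a group noticed after the counts were seen. Of the 96 other repair genes described below, 73 were in the table and 7 of these held CACGTG (9.59%). The ETS motif CCGGAAGT was in 2 of the 12 and 3 of the 26, against 9.28% of other promoters with TDG and 5.28% of all. The cyclic AMP response element TGACGTCA, the NRF1 core CGCATGCG and the E2F cores TTTCGCGC and TTTGGCGC were in none of the 12. They were in 1, 3 and 1 of the 26. The shares were 4.72%, 5.43% and 1.95% of other promoters with TDG and 2.33%, 2.55% and 1.09% of all promoters. Matches of different motifs may overlap one another, and they describe letters only.

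TDG was also found at other repair genes, mostly of the same pathways. Their list was drawn up with earlier results of these data known, so it gives no independent check. Of 96 further repair genes, 33 carried a TDG summit within 1 kb of an end (34.4%), among them 9 of 30 in recombination, 5 of 11 in checkpoint and break signalling, 4 of 9 in crosslink repair and 4 of 7 in end joining. Among the further repair genes with a CpG-rich promoter, the share at the listed start was 21 of 62 (33.9%). It was 11 of 33 for the listed repair genes and 23.3% for other genes on their chromosomes, as given above. By fold enrichment the 10 highest were Msh3 (9.11-fold), Polm (8.33-fold), Aplf (8.29-fold), Xrcc3 (8.07-fold), Rad23b and Uvssa (each 7.81-fold), Fancm (7.55-fold), Fance (7.33-fold), Atrip (7.18-fold) and Ercc5 (6.63-fold). Msh3 encodes a mismatch repair protein that binds larger loops, Polm a polymerase of end joining and Xrcc3 a recombination factor. In crosslink repair, the 4 of 9 further genes with peaks were Fance, Fancl, Fancm and Ube2t. The rest of the 9 had none, and neither did the listed genes Fanca, Fancc and Fancd2.

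The p53 list gave no peak for any of the 48 genes, against 91 of 18920 other protein-coding genes on the same chromosomes (0.481%). At that share fewer than 1 gene in 48 would carry a peak, so the count of 0 does not set the repair genes apart. The closest p53 summit to a repair gene was 238220 bases from Rad9a, followed by 311388 bases for Xrcc1 and 414805 bases for Parp1. None of the 43 genes on a chromosome with a p53 peak had one within 100 kb, against 378 of 16597 other genes (2.28%). Few of 43 genes would have one at that share, so this count does not set them apart either. The median distance to the nearest p53 summit was 3670000 bases for the 43 genes and 5960000 bases for the other genes. Ercc3, Ercc6, Apex1, Apex2 and Parp2 lie on chromosomes without any p53 peak. None of the 96 other repair genes was assigned a p53 peak either. A p53 half-site was in 2 of the 38 promoters, Fanca and Fen1 (5.26%), against 7.32% of all promoters.

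**Figure D5:**
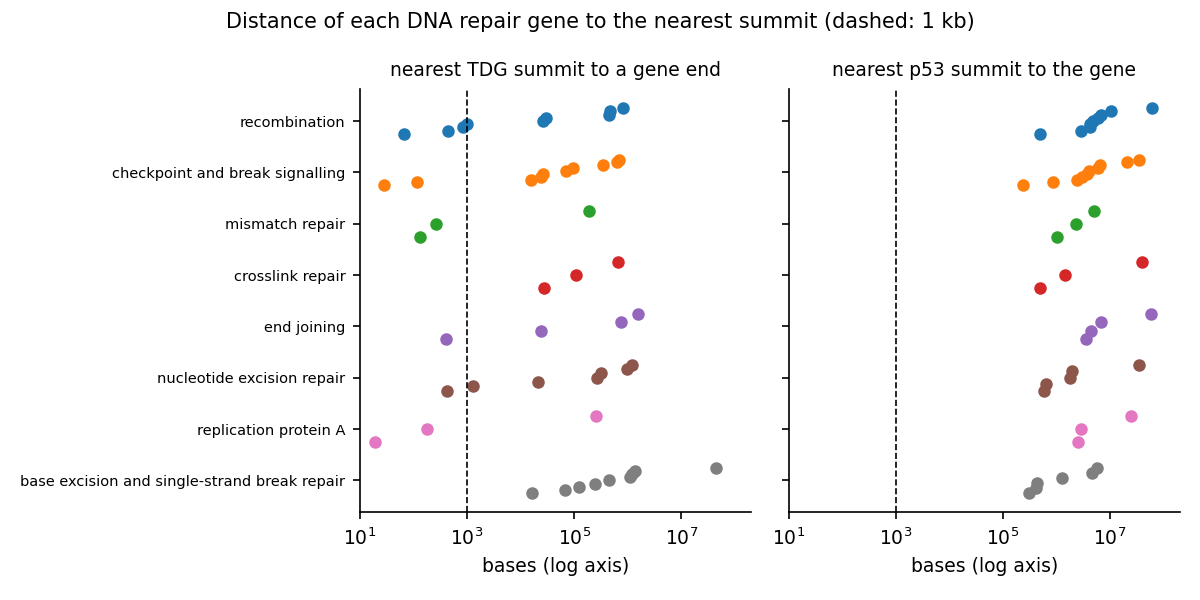
Distance in bases, on a log axis, from each repair gene to the nearest TDG summit (left, to the nearer gene end, 48 genes) and to the nearest p53 summit (right, 43 genes on chromosomes with a p53 peak), by role, with 1 kb dashed. TDG summits lie within 1 kb of 11 genes, and the nearest p53 summit to any gene is 238220 bases away.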

How the data were processed

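ChIP-seq peak lists of 2 libraries from B16 cells (Tdg HA knockin) were used, precipitated for HA or for p53. The submitters' processing notes name Trim Galore, Bowtie2, Picard, deepTools, MACS2, ChIPseeker and the build mm10, with no version. Each list was deposited by the authors as narrowPeak, with positions in bases, a fold enrichment (ratio of the scaled summit reads to the local background, taken to have 1 added to each, so lower than the plain ratio), −log10 p and −log10 q at the summit, and a score. The deposited score was 10 times the −log10 q, rounded down, for all 3410 TDG and 126 p53 peaks. For the control and the calling threshold, the sources used here give nothing. The lowest −log10 q was 3.02 for TDG and 3.74 for p53.

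Summit reads and local background were recovered by solving fold enrichment and Poisson p together, which gave whole reads, within 0.05, for 99.97% of TDG and 98.41% of p53 peaks. The read scale and the solution kept for each peak were those nearest to whole reads, so these shares are no independent check of the counts. A read counted as 0.924 scaled reads for TDG and 0.7925 for p53, and the solution was checked on simulated peaks. Those peaks were made with the same model, so they check the solving step and not the model. Genes and promoters came from RefSeq tables of GRCm38.p6, which shares its coordinates with mm10. Overlaps were computed in Python 3.11.15 with pandas 2.3.3 and SciPy 1.17.1. The background was other protein-coding genes on the same chromosomes. With 1 library per antibody, no test was run.

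The genes, lists and alternatives were chosen with earlier results of these data known. All genes with a peak are named, and of the 96 others the 10 highest, plus Fancl and Ube2t, named after their values were seen. The CpG limit and the listed starts were chosen after the data were seen.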

Additional observations from a re-analysis of the deposited data

How the results depend on the processing

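The count of 11 repair genes with TDG at an end was 10 with a 500 base window (Brca1 dropped out) and 13 with 3 kb (Ercc1 and Rad52 were added). It was 12 when any base of the peak counted, 11 with a −log10 q of at least 5 or without peaks whose local background reached 10 scaled reads, and 9 of 38 at the strand-aware end of the gene record. Keeping only the TDG peaks whose fold reached the list's median moved it by more than 1.5 times, to 6 of 48, with 16 of 96 other repair genes, because the other peaks were left out. Blm, Brca1, Msh6, Pms2 and Prkdc were lost there, and the background fell with them, to 6.58%. Of these, Pms2 and Prkdc, each at 5.73-fold, lay almost on the list's median of 5.735. The ratio of the shares, 1.88, stayed between 1.43 and 2.43 under every alternative run, lowest among CpG-rich promoters. The p53 count was 0 throughout. The share of the 11 peaks at or above the gene-end median was 45.5% by fold enrichment and by −log10 q, and 54.5% by summit reads. Leaving out replicates was not run, since each group has 1 library. The number of summit reads, 19 to 34 over the 11 peaks, limits how finely peaks can be ranked, and a gene without a peak may still bind TDG below the caller's threshold.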
